A study of Mus musculus and Homo sapiens with 14 samples.

Results

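The genes described here are 10 mouse genes of immune restraint, chosen by symbol, with earlier results of these data known. They encode the inhibitory receptors Lag3, Havcr2 (TIM-3), Tigit, Cd96 and Btla, the activating receptor Cd226 that shares ligands with Tigit and Cd96, the ligands Lgals9 (galectin-9) and Ceacam1, and the ectoenzymes Entpd1 (CD39) and Nt5e (CD73). All 10 were found among the 50559 entries of the EL4 tumour table and the 55969 entries of the EG7-OVA table. All 10 passed the filter on low counts in EL4 tumours, and 9 passed it in EG7-OVA cells, where Entpd1 did not.

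Messenger RNA was counted in 10 mouse libraries of a series of 14, in 5 groups of 2. P3 and P0 are tumours grown from the mouse T lymphoma line EL4; both carry the genotype label WT, and the labels do not say what P3 and P0 stand for or describe the host mice. The 3 other groups are cultures of EG7-OVA, an ovalbumin-expressing derivative of EL4, also labelled WT. They received azacytidine at 1.5 µM, decitabine at 0.2 µM or the solvent DMSO at 0, 24 and 48 h and were harvested at 72 h. Azacytidine is a ribonucleoside and decitabine its deoxyribonucleoside counterpart, and both trap DNA methyltransferases once built into DNA. Each line is a single line, and whether the 2 libraries of a group came from separate tumours or cultures is not stated, so p-values measure only the spread between these libraries. Total counts were 21621580 and 22899073 in P3 and 21926990 and 25328708 in P0. In EG7-OVA they were 15690747 and 16515050 with azacytidine, 19414060 and 18341509 with decitabine and 21048979 and 19116049 with DMSO. All 12 T cell markers examined had reads in each of the 10 libraries, and their summed level was 3394 to 4141 CPM (counts scaled to library size) in tumours and 3461 to 4011 CPM in EG7-OVA cells.

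Inhibitory receptors recruit phosphatases or other adaptors that dampen signalling from the T cell receptor, and T cells that meet antigen for long carry several of them at once. Tigit, Cd96 and Cd226 bind nectins and nectin-like proteins on other cells, TIM-3 has galectin-9 and Ceacam1 among its described partners, LAG-3 binds MHC class II and fibrinogen-like 1, and BTLA binds HVEM (Tnfrsf14). CD39 removes phosphates from extracellular ATP and ADP, and CD73 turns the AMP that remains into adenosine, which restrains T cells through the receptor Adora2a. Both drugs trap DNA methyltransferases, the enzymes that methylate CpG sites, so the CpG content of the promoters is given before the values.

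Promoter windows from 250 bases before to 50 bases after the gene start were read from RefSeq (GRCm38.p6) and were found for 8 of the 10 genes. Lag3 and Cd226 had no entry. These starts can differ from those of the gene positions given below, which are from GENCODE. The Nt5e window lies inside the gene span given there. The following 5 are printed because Lgals9, Cd96 and Tigit are the genes that fell under azacytidine, while Nt5e and Entpd1 have the most CpG sites of the 8. Each runs 5′ to 3′ along the gene's strand, with CpG in capitals.
Lgals9, chr11:78984875-78985174, minus strand: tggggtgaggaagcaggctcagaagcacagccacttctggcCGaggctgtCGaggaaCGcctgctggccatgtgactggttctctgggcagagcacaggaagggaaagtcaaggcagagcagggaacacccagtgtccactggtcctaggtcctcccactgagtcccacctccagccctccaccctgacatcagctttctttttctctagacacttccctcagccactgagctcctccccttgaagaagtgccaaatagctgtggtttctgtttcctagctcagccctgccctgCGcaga
Cd96, chr16:46120199-46120498, minus strand: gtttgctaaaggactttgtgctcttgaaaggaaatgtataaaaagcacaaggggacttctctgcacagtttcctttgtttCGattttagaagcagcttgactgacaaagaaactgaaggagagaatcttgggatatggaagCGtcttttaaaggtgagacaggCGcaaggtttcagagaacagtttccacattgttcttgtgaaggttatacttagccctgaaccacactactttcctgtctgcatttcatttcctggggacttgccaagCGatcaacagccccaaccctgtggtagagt
Tigit, chr16:43664135-43664434, minus strand: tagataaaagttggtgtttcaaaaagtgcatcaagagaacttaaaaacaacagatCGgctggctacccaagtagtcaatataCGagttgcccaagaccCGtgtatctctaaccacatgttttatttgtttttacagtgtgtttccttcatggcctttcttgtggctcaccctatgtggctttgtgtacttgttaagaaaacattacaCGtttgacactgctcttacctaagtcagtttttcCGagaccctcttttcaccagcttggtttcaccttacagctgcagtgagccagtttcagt
Nt5e, chr9:88327359-88327658, plus strand: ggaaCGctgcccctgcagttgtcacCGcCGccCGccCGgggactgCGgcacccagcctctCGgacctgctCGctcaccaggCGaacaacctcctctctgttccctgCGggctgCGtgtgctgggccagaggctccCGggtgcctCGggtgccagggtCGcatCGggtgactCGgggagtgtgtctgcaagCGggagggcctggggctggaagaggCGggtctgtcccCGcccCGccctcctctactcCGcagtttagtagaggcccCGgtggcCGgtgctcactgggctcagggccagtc
Entpd1, chr19:40612116-40612415, plus strand: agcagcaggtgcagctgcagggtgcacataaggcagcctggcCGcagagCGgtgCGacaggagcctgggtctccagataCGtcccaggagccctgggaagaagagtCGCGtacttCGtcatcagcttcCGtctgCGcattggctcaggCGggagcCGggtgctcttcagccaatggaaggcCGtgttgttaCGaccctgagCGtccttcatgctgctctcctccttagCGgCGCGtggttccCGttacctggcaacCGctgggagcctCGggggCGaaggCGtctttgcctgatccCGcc

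The windows of Lgals9 and Cd96 hold 4 CpG each and that of Tigit holds 5, against a median of 7 over 32851 promoters of this length. Nt5e and this Entpd1 window hold 23 each, and a second Entpd1 window (chr19:40659520-40659819) holds 10. The windows of Ceacam1 and Havcr2 hold 3 each and that of Btla 5. Of all promoters, 31.4% hold fewer CpG than Lgals9 or Cd96, 38% fewer than Tigit and 78.5% fewer than Nt5e. The dinucleotide CG occurs in 94.6% of promoters, and CpG methylation itself was not measured in these files.

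Lgals9 responds to interferon in several cell types, so its window is also shown for the interferon-stimulated response element core, GAAA and GAAA with 2 free bases between them, searched on both strands. It has 2 matches, both on the reverse strand and in capitals in the 30 bases printed here, which lie at -55 to -46 and at 15 to 24 relative to the start base, counted as 0.
Lgals9 upstream match, chr11:78984960-78984989, minus strand: tgacatcagcTTTCTTTTTCtctagacact
Lgals9 downstream match, chr11:78984890-78984919, minus strand: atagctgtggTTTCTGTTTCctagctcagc
This core occurs in 3.44% of all promoters and in no other window of the 8 genes. The gamma-activated sequence core TTCNNNGAA, present in 8.3% of promoters, was found once, in Cd96. The RUNX core TGTGGT, present in 16.8%, was found 2 times in Cd96 and 1 time each in Lgals9, Tigit, Btla, Havcr2 and the second Entpd1 window. The downstream Lgals9 match shares 1 base with the RUNX core of that window. A match is a description of letters and not evidence of a bound site.

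**Figure D1:**
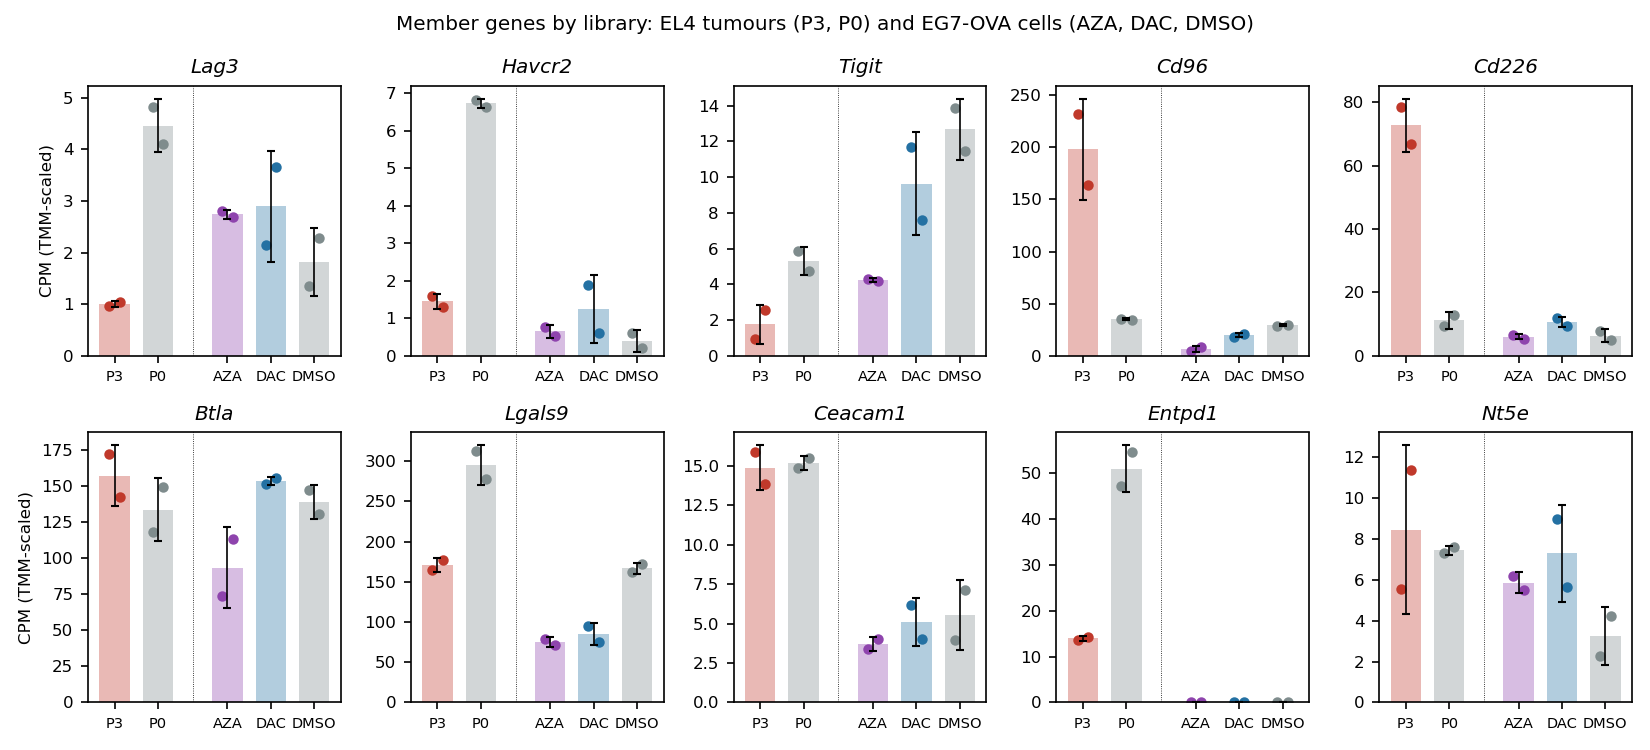
Levels of the 10 genes in CPM scaled by TMM within each table; points are libraries, bars are group means and error bars are SD (n = 2). Cd96 and Cd226 stand highest in P3 tumours, Lag3, Havcr2, Tigit, Lgals9 and Entpd1 stand lower in P3 than in P0, and Entpd1 is at or near 0 in all 6 EG7-OVA libraries. The dotted line separates tables that were normalised apart.

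In P3 tumours relative to P0 tumours the receptors split. Cd96 and Cd226 were 5.66-fold and 6.48-fold higher, while Lag3, Havcr2, Tigit, Entpd1 and Lgals9 were lower, by 4.38-fold, 4.61-fold, 3.00-fold, 3.64-fold and 1.72-fold. Btla, Ceacam1 and Nt5e did not pass the test. With edgeR's quasi-likelihood test, adjusted over all 19993 genes tested at a threshold of 0.05, 7 of 10 passed, 2 higher and 5 lower. The same test called 38.7% of all genes, 18.8% higher and 19.9% lower, so much of the transcriptome differed between the tumours. The median log2 fold change was -0.41 over the 10 genes and -0.0019 over all genes tested. Without either P0 library no edgeR call held, among these genes or any others, as the spread then came from the P3 pair alone. Without the first or the second P0 library, the edgeR log2 fold changes were 2.52 and 2.47 for Cd96 and 2.47 and 2.95 for Cd226. They were -1.44 and -1.74 for Tigit and -0.71 and -0.87 for Lgals9.

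**Figure D2:**
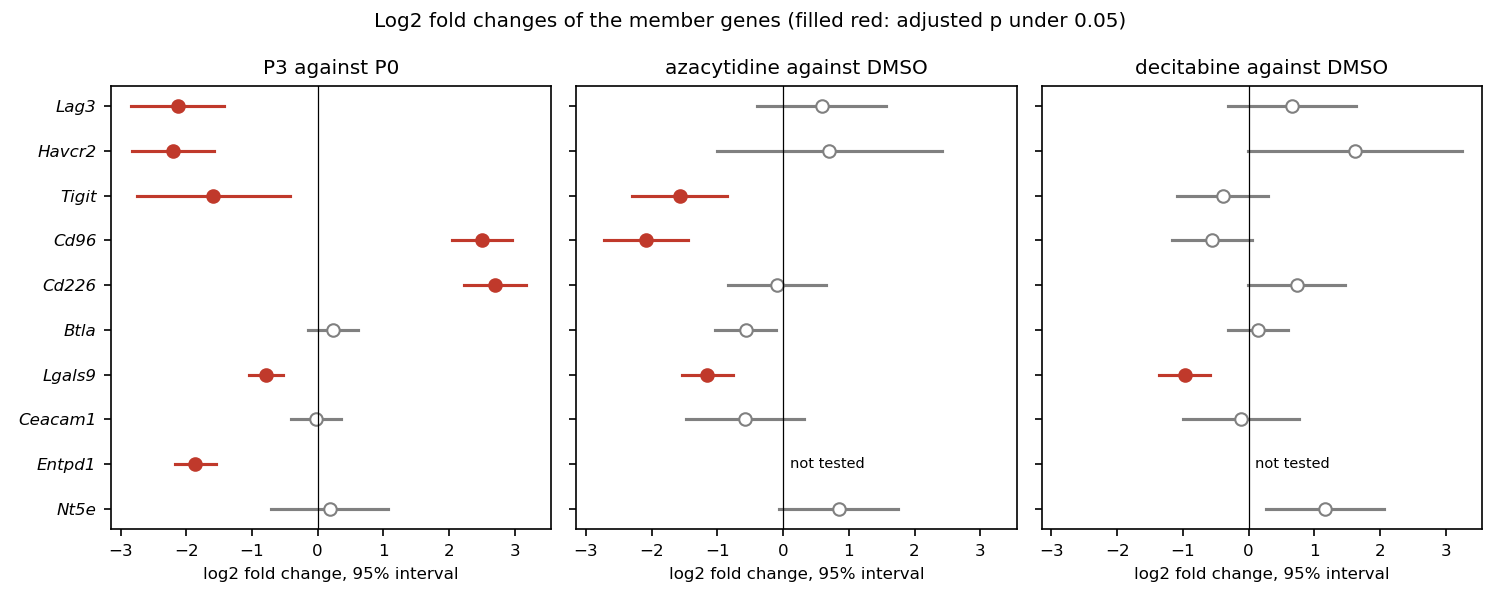
Log2 fold changes of the 10 genes with 95% intervals for P3 against P0, azacytidine against DMSO and decitabine against DMSO; filled red points passed an adjusted p of 0.05 in edgeR. Cd96 is at 2.50 in P3 against P0 and at -2.09 in azacytidine against DMSO, and Lgals9 is below 0 in all 3 panels.

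Lag3 (chr6:124904361-124911705) encodes a CD4-like receptor that binds MHC class II. It had 0.973 and 1.05 CPM in P3, compared with 4.83 and 4.10 CPM in P0. Both P3 libraries, with 46 reads together, lay below both P0 libraries, with 205 reads (log2 fold change -2.13 ± 0.29 SE, edgeR adjusted p = 0.00511). Of the 7 genes in the LAG-3 ligand list, 5 were tested and all 5 fell, with a median log2 fold change of -3.39 against -0.0019 for all genes. The class II genes H2-Aa, H2-Ab1 and H2-Eb1 were among them. So was Cd74, the class II invariant chain, which is counted in the list but is not itself a ligand. Cd74 averaged 57.5 ± 26.1 CPM in P3 and 783.5 ± 225 CPM in P0 (SD, n = 2 each; log2 fold change -3.77 ± 0.39). The fifth was Lgals3, galectin-3, another described LAG-3 ligand, at -1.31 ± 0.22 on the log2 scale. The other 2, Fgl1 and Clec4g, had too few reads to be tested.

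Havcr2 (chr11:46454935-46481255) encodes TIM-3, found on exhausted T cells and on macrophages and dendritic cells. It had 1.59 and 1.32 CPM in P3, compared with 6.82 and 6.65 CPM in P0. The 2 groups did not overlap, with 66 reads in P3 and 311 in P0, and the difference was -2.21 ± 0.25 on the log2 scale (edgeR adjusted p = 0.00343). Of the 4 tested genes among TIM relatives and TIM-3 partners, Timd2, an H-ferritin receptor, rose by 0.65 ± 0.13 and Timd4, a phosphatidylserine receptor of macrophages, fell by 4.65 ± 1.37. Timd4 had 5 reads in P3 and 142 in P0, with an SD (3.13 CPM) larger than its mean (2.88 CPM) in P0. The alarmin Hmgb1 and Bag6, an intracellular TIM-3 partner, did not pass the test, and the list's median was -0.0052.

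Cd96 (chr16:46035657-46120251) had 232 and 164 CPM in P3, compared with 35.7 and 34.3 CPM in P0. Both P3 libraries stood well above P0 (log2 fold change 2.50 ± 0.18, edgeR adjusted p = 0.00131). Cd96 is a receptor of NK and T cells for the poliovirus receptor Pvr and for nectin-1. Cd226, which signals activation on binding Pvr and nectin-2, had 78.6 and 66.8 CPM in P3, compared with 9.37 and 13.0 CPM in P0. It had the largest rise of the 10 genes and did not overlap between the groups (2.70 ± 0.19, adjusted p = 0.00122).

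Tigit (chr16:43648867-43664146), the inhibitory receptor with the highest affinity for Pvr, went the other way. It had 0.973 and 2.55 CPM in P3, compared with 5.87 and 4.74 CPM in P0. The P3 libraries differed more than 2-fold from each other but both lay below P0 (log2 fold change -1.59 ± 0.47, edgeR adjusted p = 0.0450). This call was near the threshold, and the fold change ranged from -2.45 to -1.04 as single libraries were left out. Of 8 tested nectin-pathway genes, 2 rose and 3 fell, with a median of -0.65. Pvr, the shared ligand, averaged 21.6 ± 3.18 CPM in P3 and 12.4 ± 0.922 CPM in P0 (log2 fold change 0.80 ± 0.17), and Pvrig, an inhibitory receptor for nectin-2, rose by 1.64 ± 0.39 from a low level. Nectin1 averaged 92.3 ± 15.5 CPM in P3 and 223 ± 15.6 CPM in P0 (-1.27 ± 0.14). Crtam, a receptor of activated cytotoxic T cells, and its ligand Cadm1 changed by -3.57 ± 0.61 and -2.68 ± 0.37, with 5 and 18 reads in P3 and 64 and 119 in P0.

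Btla (chr16:45224315-45257670), a receptor for HVEM, had 172 and 142 CPM in P3, compared with 118 and 149 CPM in P0. The libraries overlapped, and the log2 fold change was 0.23 with an interval of -0.15 to 0.62 (edgeR adjusted p = 0.264). Without the second P3 library it was 0.36 in edgeR, which then took its spread from the P0 pair alone and called 11286 genes (adjusted p = 0.00737), and 0.36 in DESeq2, where it did not pass (adjusted p = 0.0690). Among 4 HVEM partners, Tnfsf14 (LIGHT), an HVEM ligand, rose by 1.36 ± 0.30 and Cd160, an inhibitory and activating HVEM receptor of NK and T cells, fell by 2.10 ± 0.30. Tnfrsf14 itself and Lta did not pass, and the median of the 4 was -0.25.

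Lgals9 (chr11:78962974-78984946), a tandem-repeat galectin that is secreted or held in the cell, had 165 and 177 CPM in P3, compared with 312 and 277 CPM in P0. The groups did not overlap, and the fall of -0.78 ± 0.11 on the log2 scale was the smallest in size among the 7 calls (edgeR adjusted p = 0.00515). Of 8 other galectins tested, Lgals8 rose by 0.42 ± 0.11 and Lgals1 and Lgals3 fell (-0.64 ± 0.14 and -1.31 ± 0.22). The median of these 8 was -0.66.

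Ceacam1 (chr7:25461707-25477603), a self-binding adhesion molecule with inhibitory motifs, had 15.9 and 13.9 CPM in P3, compared with 14.9 and 15.5 CPM in P0. The libraries overlapped (log2 fold change -0.03, interval -0.41 to 0.35). Its value is uncertain, because Ceacam2 (chr7:25516042-25539857) is a close relative and reads may have been split between the 2 genes in counting. That was not tested. Ceacam2 had 6.10 and 6.36 CPM in P3, compared with 15.1 and 15.6 CPM in P0 (-1.30 ± 0.16, edgeR adjusted p = 0.00434). The sum of the 2 genes was 21.98 and 20.2 CPM in P3, compared with 30.01 and 31.04 CPM in P0, with no overlap. Of 5 tested relatives, Ceacam2, Ceacam10 and Ceacam15 fell and Ceacam16 rose, with a median of -1.30.

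Entpd1 (chr19:40612366-40741602), which encodes CD39, had 13.6 and 14.4 CPM in P3, compared with 47.3 and 54.6 CPM in P0. The groups were far apart, with the smallest p of the 10 genes (log2 fold change -1.86 ± 0.12, edgeR adjusted p = 0.00103). Nt5e (chr9:88327197-88372092), which encodes CD73, had 5.53 and 11.4 CPM in P3, compared with 7.29 and 7.60 CPM in P0. The P3 libraries lay on both sides of P0 (0.18, interval -0.70 to 1.07, adjusted p = 0.705). Without the first P3 library Nt5e was at 0.62 (adjusted p = 0.0110 in edgeR with the spread of the P0 pair, and 0.195 in DESeq2). Without the second it was at -0.44 in edgeR (adjusted p = 0.105), so its direction rested on 1 library.

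Of 10 tested ectonucleotidases and NAD-consuming ectoenzymes, 1 rose and 1 fell. Acp3, a transmembrane acid phosphatase able to make adenosine from AMP and listed as Acpp in this table, averaged 33.0 ± 17.4 CPM in P3 and 1.79 ± 0.342 CPM in P0 (log2 fold change 4.204 ± 0.45). Enpp2 (autotaxin), which makes lysophosphatidic acid, fell by 2.51 ± 0.26. Of 10 tested genes of adenosine sensing, uptake and breakdown, none rose and 5 fell, with a median of -0.79 against -0.0019 for all genes. Adora2a averaged 2.03 ± 0.0111 CPM in P3 and 13.6 ± 0.0175 CPM in P0 (-2.75 ± 0.20, edgeR adjusted p = 0.00122). Adenosine deaminase (Ada, -0.98 ± 0.10), the transporters Slc29a2 (-1.45 ± 0.36) and Slc29a1 (-0.37 ± 0.10) and adenosine kinase (Adk, -0.33 ± 0.09) made up the rest. Among 5 sheddases and phosphatases, Ptpn6, the SHP-1 phosphatase recruited by several inhibitory receptors, fell by 0.79 ± 0.11, and the sheddases Adam10 and Adam17, Ptpn11 and Inpp5d did not pass.

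Markers of several immune cell types were lower in P3 tumours, as were 5 of these genes. In bulk tumour, fewer cells of a type and less RNA per cell cannot be told apart. Macrophage markers fell for 12 of 14 and rose for 1, with a summed level of 405 and 377 CPM in P3, compared with 1410 and 1743 CPM in P0. C1qc, Fcgr3 and Lyz2 had the smallest p among them, at -1.94, -2.61 and -2.24 on the log2 scale. Dendritic cell markers fell for 8 of 10 (51.8 and 56.7 CPM in P3, compared with 206 and 240 CPM in P0), B cell markers for 10 of 10 (65.5 and 70.6 CPM against 305 and 531 CPM in P0) and NK and cytotoxic markers for 10 of 11 tested (36.8 and 31.6 CPM against 181 and 202 CPM in P0). All 5 regulatory T cell markers fell (285 and 265 CPM in P3, compared with 630 and 641 CPM in P0), but most of that sum was Ikzf2, and DMSO-treated EG7-OVA cells, which have no host tissue, had 642 and 733 CPM of the list in their own table. These are the cell classes in which Lag3, Havcr2, Tigit, Entpd1 and class II genes are commonly found, and their part in the falls of these genes was not tested. DMSO-treated EG7-OVA cells, normalised apart, had 13.9 and 11.5 CPM of Tigit and no read of Entpd1. They had 1.36 and 2.29 CPM of Lag3 and 0.603 and 0.199 CPM of Havcr2.

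T cell markers, which the lymphoma itself expresses, had 1 gene higher and 2 lower of 12, with sums of 3394 and 3727 CPM in P3, compared with 4141 and 3688 CPM in P0. None of 9 endothelial markers passed the test. Fibroblast markers also had lower sums in both P3 libraries, although of 7 only 2 fell past the threshold and 1 rose, with a median log2 fold change of -2.18 and sums of 1670 and 1023 CPM in P3, compared with 2862 and 2928 CPM in P0. Neutrophil markers rose for 3 of 6 tested, with sums of 18.0003 and 60.5 CPM in P3, compared with 8.71 and 10.7 CPM in P0, so the 2 P3 libraries differed more than 3-fold. No marker of any list was at 0 in both libraries of P3 or of P0. Cd96 and Cd226 rose while the NK and cytotoxic list fell.

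**Figure D3:**
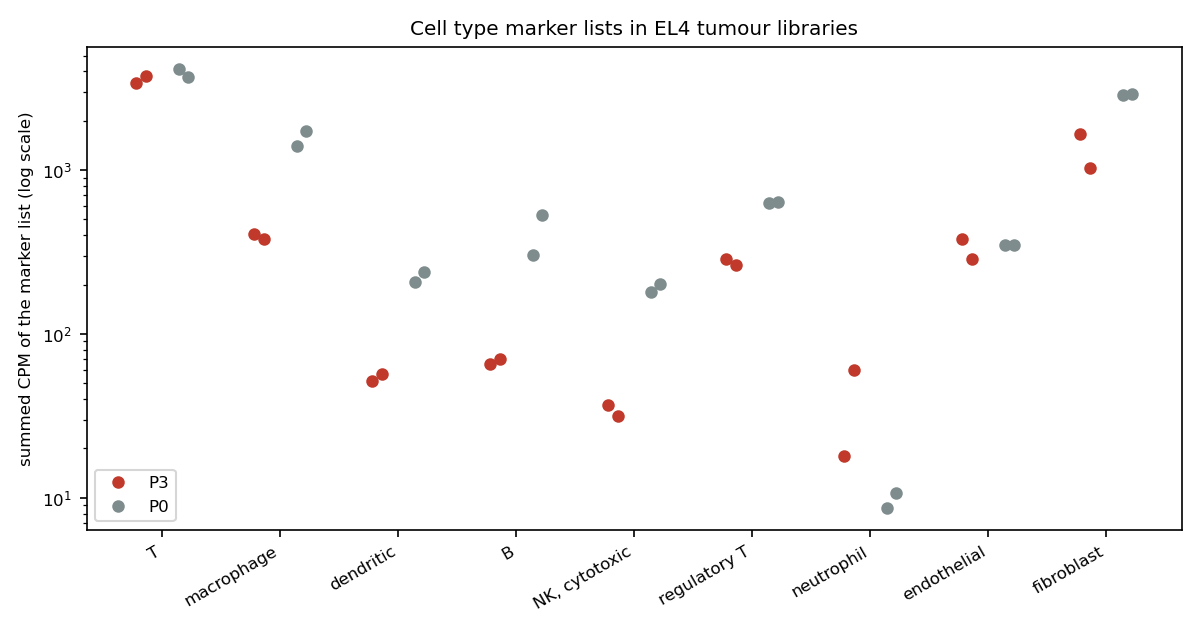
Summed CPM of 9 cell type marker lists in each EL4 tumour library, on a log axis; the 2 points per group are the libraries. The sums for macrophage, dendritic, B, NK and cytotoxic, regulatory T cell and fibroblast markers are lower in both P3 libraries than in both P0 libraries, while T cell and endothelial sums overlap.

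In cultured EG7-OVA cells, grown without host tissue, 3 of these genes passed the test with azacytidine and 1 with decitabine. Azacytidine lowered Cd96 by 4.27-fold, Tigit by 2.98-fold and Lgals9 by 2.22-fold. Decitabine lowered Lgals9 by 1.96-fold and changed no other gene of the 10 past the threshold. Lgals9 was the only gene of the 10 called with both drugs, and both comparisons use the same 2 DMSO libraries. With azacytidine 3 of the 9 tested genes fell and none rose, where the edgeR test called 20.3% of all 19123 genes, 13.6% higher and 6.70% lower. With decitabine 1 of 9 fell and none rose, where the test called 16.7% of all genes, 12.4% higher and 4.30% lower. Median log2 fold changes over the 9 genes were -0.57 with azacytidine and 0.14 with decitabine, against 0.033 and 0.036 over all genes. The lists of partner genes below cover only genes that passed the filter on low counts. A gene with few DMSO reads can pass it through the drug groups, so counts and medians of these lists can be partly set by the filter.

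Lgals9 had 79.1 and 70.9 CPM with azacytidine, 95.03 and 75.1 CPM with decitabine and 162 and 172 CPM with DMSO. All 4 drug-treated libraries lay below both DMSO libraries. The log2 fold change was -1.15 ± 0.18 with azacytidine (edgeR adjusted p = 0.00160) and -0.97 ± 0.17 with decitabine (adjusted p = 0.00454). Both calls held as each library was left out in turn, with ranges of -1.27 to -1.11 and -1.19 to -0.83. The interferon response element matches printed above lie in the window of this gene, whose RNA was lower with both drugs.

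Cd96 had 4.97 and 8.70 CPM with azacytidine, 18.5 and 21.2 CPM with decitabine and 28.6 and 29.9 CPM with DMSO. The 3 groups did not overlap, with the azacytidine libraries lowest. The change was -2.09 ± 0.29 with azacytidine (edgeR adjusted p = 0.000908) and -0.56 with an interval of -1.16 to 0.05 with decitabine (adjusted p = 0.203). Cd96 therefore moved in opposite directions in the tumour comparison and under azacytidine, in tables normalised apart.

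Tigit had 4.31 and 4.17 CPM with azacytidine, 11.7 and 7.60 CPM with decitabine and 13.9 and 11.5 CPM with DMSO. The azacytidine libraries lay below all the others, while decitabine and DMSO overlapped. The change was -1.58 ± 0.32 with azacytidine (edgeR adjusted p = 0.00719), and -0.39 with an interval of -1.08 to 0.29 with decitabine. Without the first or the second azacytidine library Tigit no longer passed the test, with log2 fold changes of -1.63 and -1.59.

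Cd226 had 6.53 and 5.48 CPM with azacytidine, 11.8 and 9.51 CPM with decitabine and 7.89 and 4.93 CPM with DMSO. Its decitabine libraries were the highest, but the change of 0.73 had an interval of -0.01 to 1.48 and did not pass (edgeR adjusted p = 0.171). With azacytidine it was -0.09, with an interval of -0.84 to 0.65. Of 4 tested nectin-pathway genes, Nectin2, a ligand of Cd226 and Pvrig, rose with both drugs, by 2.94 ± 0.45 with azacytidine and 2.29 ± 0.45 with decitabine. It averaged 3.71 ± 0.858 CPM with azacytidine, 2.35 ± 0.153 CPM with decitabine and 0.476 ± 0.109 CPM with DMSO. Pvr rose with decitabine (0.68 ± 0.19) and none of the 4 fell. The list medians were 0.51 with azacytidine and 0.94 with decitabine.

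Btla had 73.5 and 113 CPM with azacytidine, 151 and 155 CPM with decitabine and 147 and 130 CPM with DMSO. Both azacytidine libraries lay below DMSO and both decitabine libraries above it, yet neither difference passed the test. The change was -0.57 with azacytidine (interval -1.03 to -0.11, edgeR adjusted p = 0.0819) and 0.14 with decitabine (interval -0.31 to 0.60, adjusted p = 0.702). With azacytidine it passed in DESeq2 (adjusted p = 0.0369) and without the second azacytidine library (-0.95, adjusted p = 0.0304). Its ligand Tnfrsf14 rose with both drugs, by 0.63 ± 0.20 with azacytidine and 0.73 ± 0.20 with decitabine, and Lta, another HVEM ligand, rose by 1.87 ± 0.42 with decitabine. Medians over the 3 tested partners were 0.63 with azacytidine and 1.16 with decitabine.

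Lag3 had 2.81 and 2.68 CPM with azacytidine, 2.14 and 3.66 CPM with decitabine and 1.36 and 2.29 CPM with DMSO. Neither difference passed, at 0.59 (interval -0.39 to 1.57) with azacytidine and 0.67 (interval -0.31 to 1.64) with decitabine. Of the LAG-3 ligand list, which counts the invariant chain Cd74, 3 genes were tested. Cd74 rose with both drugs, to 33.2 ± 10.97 CPM with azacytidine and 65.9 ± 0.400 CPM with decitabine, against 4.38 ± 0.203 CPM with DMSO (log2 fold changes 2.92 ± 0.26 and 3.91 ± 0.26). H2-Eb1, a class II beta chain, rose with decitabine (1.66 ± 0.23). H2-Aa and H2-Ab1 had at most 22 reads in any group. Medians over the 3 were 2.92 with azacytidine and 3.40 with decitabine. Cd74 was the only 1 of the 3 to pass with azacytidine, and that median is its own value. With decitabine the median is the value of the only tested gene that did not pass. The filter on low counts kept 3 of the 7 listed genes, so both medians describe those 3 alone.

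Havcr2 was near the limit of detection, at 0.784 and 0.536 CPM with azacytidine, 1.89 and 0.601 CPM with decitabine and 0.603 and 0.199 CPM with DMSO. These were 21, 48 and 16 reads per group, and the intervals were wide, at -1.01 to 2.42 with azacytidine and -0.0041 to 3.25 with decitabine. Its relative Havcr1 (TIM-1) had 406 reads with azacytidine and 239 with decitabine, against 1 read with DMSO. The ratio to DMSO was 506 (counting interval 90.2 to 20022) with azacytidine and 252 (44.8 to 9990) with decitabine. With 1 DMSO read, Havcr1 could pass the filter on low counts only through the drug groups. Hmgb1 fell by 0.76 ± 0.21 with azacytidine, and the medians of the 4 tested TIM genes and partners were -0.17 with azacytidine and -0.094 with decitabine. Of the 4 other galectins tested, Lgals7 rose with both drugs, by 4.33 ± 0.59 with azacytidine and 4.26 ± 0.59 with decitabine, and Lgals8 rose by 0.67 ± 0.19 with decitabine. None of these 4 fell, and their median was 0.48 with each drug.

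Ceacam1 had 3.40 and 3.99 CPM with azacytidine, 6.17 and 4.04 CPM with decitabine and 3.97 and 7.13 CPM with DMSO. The groups overlapped with DMSO, the changes were -0.59 (interval -1.48 to 0.31) and -0.12 (interval -1.003 to 0.76), and the Ceacam2 limit applies here too. Of 3 tested relatives, Ceacam10 rose with both drugs, by 2.62 ± 0.76 with azacytidine and 3.54 ± 0.72 with decitabine, and Ceacam16 rose with decitabine (1.67 ± 0.47). Medians of the 3 were 0.83 with azacytidine and 1.67 with decitabine.

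Entpd1 had no read in the 4 azacytidine and DMSO libraries and 1 read in 1 decitabine library. A count of 0 allows up to 0.0935 CPM with azacytidine and 0.0751 CPM with DMSO, from 3 counts over a group and for counting error only. The EL4 tumours had 13.6 to 54.6 CPM of this gene in their own table. Nt5e had 6.21 and 5.48 CPM with azacytidine, 8.97 and 5.63 CPM with decitabine and 2.26 and 4.24 CPM with DMSO. All 4 drug-treated libraries lay above both DMSO libraries, and neither change passed, at 0.85 ± 0.40 (edgeR adjusted p = 0.176) with azacytidine and 1.17 ± 0.40 (adjusted p = 0.0778) with decitabine. Without the DMSO library of replicate 3, Nt5e passed with decitabine (1.65, adjusted p = 0.0261), and it also passed with all libraries and no filter on low counts (1.18, adjusted p = 0.0412).

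Several other ectoenzymes rose from near 0. With azacytidine, 6 of 8 tested rose and 1 fell, with a median of 2.52, or 1.75 with Cd38 at its bound. Acp3 had 93 reads against 2 with DMSO (ratio 57.9, counting interval 15.6 to 485), Enpp3, a nucleotide pyrophosphatase, 66 against 3 (27.4, 8.98 to 136) and Alpl, tissue-nonspecific alkaline phosphatase, 37 against 2 (23.0, 5.94 to 197). The gene that fell was Entpd5, an intracellular nucleotidase (-0.54 ± 0.16). With decitabine 4 of 8 rose and none fell, with a median of 2.31, or 2.00 with Cd38 at its bound. These were Acp3 with 110 reads (58.0, 15.7 to 485), Enpp3 with 75 (26.3, 8.68 to 131), Alpl with 34 (17.9, 4.59 to 154) and Cd38, an NAD glycohydrolase, with 30 against 0 with DMSO, at least 10.5-fold higher. These 4 genes averaged below 3 CPM with either drug. They had at most 3 reads with DMSO and passed the filter on low counts through the drug groups, while 8 of 13 listed genes passed it. The counts of rises and the medians of this list are therefore partly set by the filter.

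Of 11 genes of adenosine sensing, uptake and breakdown, Adora1, the A1 receptor, averaged 16.8 ± 0.0771 CPM with azacytidine, 15.2 ± 4.62 CPM with decitabine and 0.601 ± 0.00363 CPM with DMSO. It rose by 4.79 ± 0.36 with azacytidine and 4.64 ± 0.36 with decitabine. Adora3 rose with decitabine alone past the threshold (3.34 ± 0.96), its 2 libraries differing widely (SD 3.06 CPM around 3.09 CPM), and none of the 11 fell. The list medians were 0.24 with azacytidine and 0.18 with decitabine. The phosphatases Ptpn6 and Inpp5d (SHIP-1) rose with both drugs, by 0.77 ± 0.20 and 0.70 ± 0.17 with azacytidine and by 0.77 ± 0.20 and 0.63 ± 0.17 with decitabine. Of the 5 in that list none fell, and the medians were 0.24 with azacytidine and 0.29 with decitabine. Ptpn6 thus fell in the tumours and rose in the cultures.

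**Figure D4:**
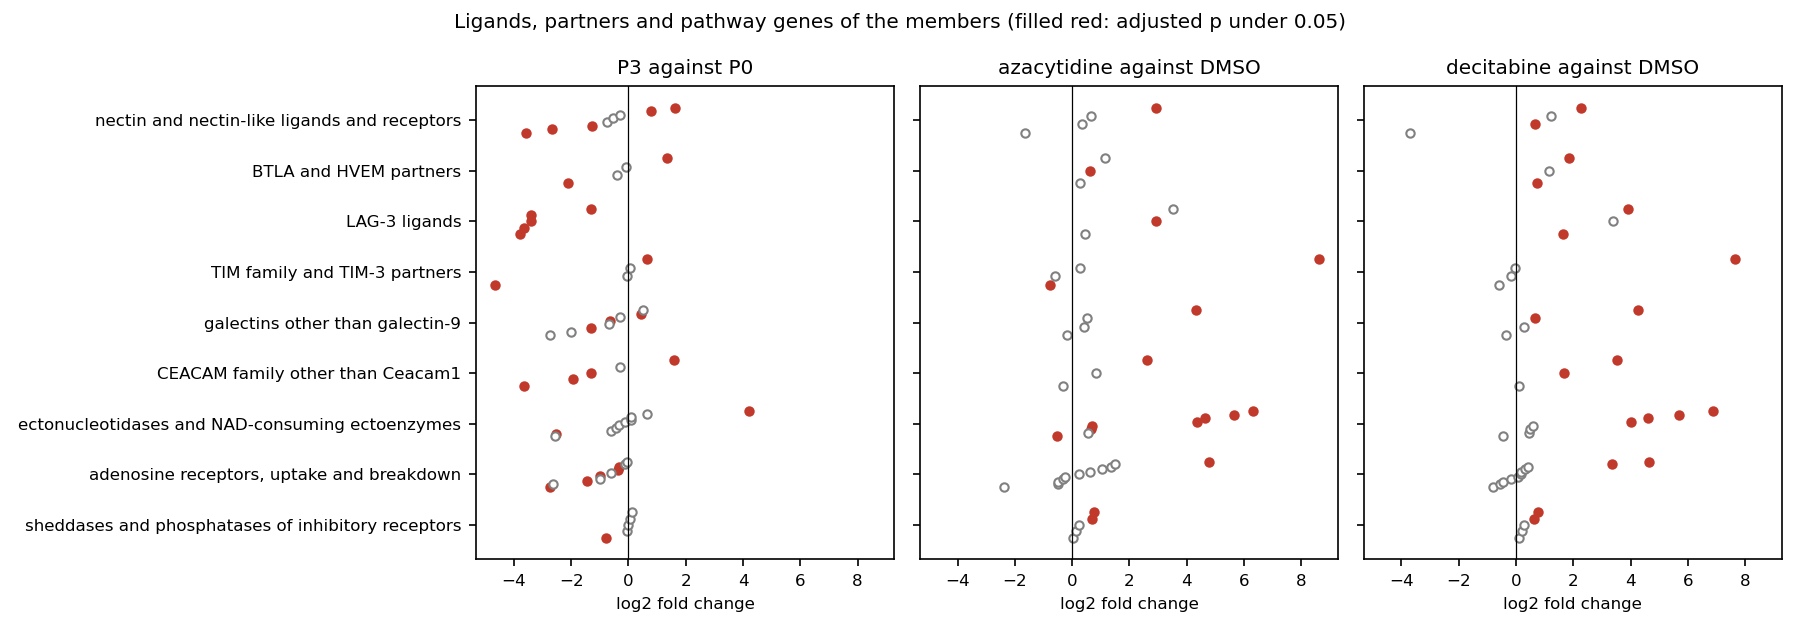
Fitted log2 fold changes of the tested genes in 9 lists of ligands, partners and pathway genes, 1 row per list, for P3 against P0, azacytidine against DMSO and decitabine against DMSO; filled red points passed an adjusted p of 0.05 in edgeR. All 5 tested genes of the LAG-3 ligand list, Cd74 included, lie below 0 in the tumours. In the cultures the red points below 0 are Hmgb1 and Entpd5 with azacytidine. Fitted values of genes with 0 to 3 DMSO reads depend on the prior count.

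Markers of other cell types were read in the cultures as well. Macrophage markers summed to 37.9 and 48.0 CPM with azacytidine, 62.7 and 64.5 CPM with decitabine and 21.3 and 23.4 CPM with DMSO, with 5 of 8 tested higher with each drug and C1qa, C1qb, C1qc and Ms4a7 at 0 in all 6 libraries. Regulatory T cell markers summed to 306 and 374 CPM with azacytidine, 666 and 485 CPM with decitabine and 642 and 733 CPM with DMSO. Of these 5 markers, 1 was lower with azacytidine and 1 was higher with decitabine. Fibroblast markers summed to 80.4 and 32.8 CPM with azacytidine, 70.0 and 55.0 CPM with decitabine and 3.37 and 32.4 CPM with DMSO. They rose for 3 of 4 tested with each drug, with Col3a1 and Dcn at 0 in both libraries of each group. B cell markers summed to 26.8 and 14.6 CPM with azacytidine, 32.8 and 24.0 CPM with decitabine and 4.42 and 50.4 CPM with DMSO, where the second value is the library titled replicate 3. None of the 8 tested B cell markers passed with either drug. Adgre1 and Cd14 of the macrophage list had 1 and 3 reads with DMSO, and Col1a2 of the fibroblast list had 0. These 3 passed the filter on low counts through the drug groups, so the counts of rising markers are partly set by the filter. The part of these markers in the changes of the 10 genes was not tested.

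Azacytidine and decitabine were given at different molar doses, so their direct contrast compares treatments and not molecules. In the 9 genes tested, edgeR called none, as it called 0 of 19123 genes (0%), although 1218 genes, 4 of them among the 9, had an unadjusted p under 0.05. Limma-voom called none of the 9 and 0 of all genes. DESeq2 called 1 of the 9, Cd96, at -1.52 (adjusted p = 0.000173), and 177 of all genes. In edgeR the difference for Cd96 was -1.53 with an interval of -2.17 to -0.90 (adjusted p = 0.159), for Tigit -1.18 (-1.90 to -0.47, adjusted p = 0.351), for Btla -0.71 (-1.18 to -0.25, adjusted p = 0.417) and for Cd226 -0.83 (-1.57 to -0.08, adjusted p = 0.705). For Lgals9 it was -0.18 with an interval of -0.57 to 0.20. Cd96 also passed in edgeR with no filter on low counts (-1.55, adjusted p = 3.64e-05) and without the DMSO library of replicate 3 (-1.54, adjusted p = 0.0486), and Btla passed with no filter (-0.73, adjusted p = 0.0312). Tigit passed in none of these settings. The call for a difference between the drugs thus depends on the setting for Cd96 and Btla.

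Set per length, the order of levels also differed between groups. In RPKM, counts scaled to library size and exonic length, Cd96 (90.6 ± 22.2) and Lgals9 (80.0 ± 4.17) led in P3 and overlapped between libraries, followed by Btla (46.3 ± 6.15) and Cd226 (14.9 ± 1.70), with all others below 3 RPKM. In P0, Lgals9 led at 138 ± 11.6 RPKM, followed without overlap by Btla (39.3 ± 6.49), Cd96 (16.0 ± 0.451), Entpd1 (9.13 ± 0.920) and Tigit (5.77 ± 0.873). In DMSO-treated cells the order was Lgals9 (78.0 ± 3.35), Btla (40.8 ± 3.43), then Tigit (13.8 ± 1.85) and Cd96 (13.4 ± 0.438), whose libraries overlapped. With azacytidine Lgals9 (35.1 ± 2.73) and Btla (27.5 ± 8.29) overlapped at the top, and with decitabine Btla (45.1 ± 0.820) stood above Lgals9 (39.8 ± 6.60) without sharing a value. Havcr2 was the lowest gene with reads in all libraries of the 3 culture groups, at 0.147 to 0.457 RPKM on average. Errors are SD with n = 2.

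Across the 10 libraries, centred within each table, the nearest profiles to these genes were sought among 11075 genes by Euclidean distance of log2 CPM. Cd226 lay nearest to Ccr4, a chemokine receptor of T cells (distance 0.617, r = 0.978), and Btla to Ptprc, the pan-leukocyte phosphatase CD45 (0.316, r = 0.949). Lgals9 lay nearest to Ppie, Xrcc6 and Echs1 (0.296 to 0.310). For Lag3 the 3 nearest were Pcx, Abcc5 and Prkcz (0.647 to 0.718), for Ceacam1 Arap2, Zfp712 and Parp16 (0.410 to 0.461). Distances were larger for Havcr2, which lay nearest to Creb5, Arg1 and Opn3 (1.07 to 1.21), for Tigit, with Phf11, Fam241a and Hgf (1.02 to 1.13), and for Cd96, with Wnt8b, Clec4e and F2rl2 (1.33 to 1.41). The profiles share the same libraries and scaling, so these are descriptions of likeness over 10 points.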

How the data were processed

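RNA was extracted with Trizol, per the labels' protocols. The deposited tables hold counts per gene symbol; for these the submitters' processing notes name fastp, Trim Galore, STAR and featureCounts and the builds mm10 and GRCh38. Tool versions and strand handling are not given. Of the deposited EG7 values, 145 in 62 entries, none of them one of the 10 genes, were not whole, so the EG7 values were handled like estimated counts (expected counts), as the authors deposited them, and rounded. How the authors made such values is not stated. The NKYS libraries were not analysed here.

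Each table was fitted whole in edgeR 4.0.16 (R 4.3.3) after filterByExpr and TMM scaling, with a mean for each group and all 6 EG7 libraries in one model. Tests were two-sided quasi-likelihood tests, with Benjamini-Hochberg adjustment over all genes tested and a threshold of 0.05. Standard errors are the log2 fold change over the root of F and intervals are 95%. CPM and RPKM were computed here, with exonic lengths and positions from GENCODE vM21 on mm10. Biological variation between libraries (BCV) was 0.188 for EL4 and 0.244 for EG7, and replicates correlated at 0.969 to 0.991 across genes. Intervals on ratios and floors of 3 counts cover counting error only.

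Other settings were DESeq2 1.42.0, limma-voom 3.58.1, scaling by median ratios, the filter dropped or made stricter (100 counts in all and 1 CPM in both libraries of some group), a fit of just the 4 libraries at issue, a cut at log2 1 in size, a replicate block, and every library left out in turn. The scripts were tested on simulated data. The genes and lists were chosen with earlier results of these data known. All 10 genes are named in each comparison; of other lists, the 3 genes with the smallest p or any group of 5 or fewer called genes, and up to 3 nearest profiles of a gene tested in both tables; those of Nt5e are not reported here. DMSO libraries are titled replicates 2 and 3 and named 1 and 2 in the library names.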

Additional observations from a re-analysis of the deposited data

Results flagged for a closer look

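Among the 9 genes tested in EG7-OVA cells, Btla was the only 1 whose 2 drug groups lay on opposite sides of DMSO in every library. How many of all genes do so was not counted. Both azacytidine libraries (73.5 and 113 CPM) were below both DMSO libraries (147 and 130 CPM), and both decitabine libraries (151 and 155 CPM) were above them. The decitabine change was small, at 0.14 on the log2 scale. Neither drug group passed the edgeR test against DMSO (adjusted p = 0.0819 with azacytidine and 0.702 with decitabine). The difference between azacytidine and decitabine was -0.71 on the log2 scale with an interval of -1.18 to -0.25, and it did not pass the edgeR test (adjusted p = 0.417). With no filter on low counts it did pass (-0.73, adjusted p = 0.0312), and in DESeq2 it did not (adjusted p = 0.0957).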

How the results depend on the processing

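Of the counts of the 10 genes called, P3 against P0 gave 7 in the main setting and 6 or 7 in 7 other settings, with a range of 0 to 8 as single libraries were left out of edgeR and DESeq2 (0 in edgeR and 4 in DESeq2 without either P0 library). Azacytidine against DMSO gave 3, with 4 in DESeq2, without a filter and with crossed pairing, where Btla was added (adjusted p = 0.0369, 0.0306 and 0.0415). Calls over all genes rose as well, from 3883 to 4447, 5289 and 4576 in these settings. Decitabine against DMSO gave 1, with 2 without a filter, 2 with crossed pairing and 0 with an absolute log2 fold change above 1. Over all genes these settings called 3198, 4479, 3922 and 2216. Azacytidine against decitabine gave 0, with 1 in DESeq2, 2 without a filter and 1 with crossed pairing. Over all genes these settings called 0, 177, 378 and 167. Directions turned only where a single library was left out, for values that had not passed, and the log2 fold changes over those fits then ranged over both signs. Those ranges were -0.12 to 0.063 for Ceacam1 and -0.44 to 0.62 for Nt5e in P3 against P0 (without the second P3 library 0.057 and 0.063 for Ceacam1, -0.44 and -0.43 for Nt5e, in edgeR and DESeq2), -0.44 to 0.26 for Cd226 with azacytidine and -0.49 to 0.32 for Ceacam1 with decitabine. Between the drugs they were -0.41 to 0.34 for Lag3, -1.52 to 0.14 for Havcr2, -0.36 to 0.0070 for Lgals9 and -0.63 to 0.063 for Nt5e. The cause was not tested. Same-numbered libraries did not deviate together in EL4 (r = -0.0374). In EG7 they did between the drugs (r = 0.273), while DMSO deviated against azacytidine (-0.257) and decitabine (-0.191), so the numbers were not taken as pairs. Crossing the DMSO numbers turns the sign of those 2 values; with that block Cd96 passed between the drugs (adjusted p = 0.00837) and Nt5e with decitabine (adjusted p = 0.0218). The replicate block gave 6 calls in P3 against P0, without Tigit (-1.69, edgeR adjusted p = 0.0587), and 5490 over all genes. That crossing, and DESeq2 without each EL4 library, were added after seeing the data. Depth limits Havcr2, Entpd1 and Lag3 most.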
